A study of Homo sapiens with 15 samples.

Results

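The DNA transposons described here were the repeats whose names start with Tigger, Charlie, MADE or HSMAR in a table of CpG methylation by repeat name. They were 55 of the 834 named repeats: 26 Tigger names, 25 Charlie names, 2 HSMAR names and 2 MADE names. Names starting with hAT or Mariner were also looked for, and the table held 0 of each. They were taken by name and not by their methylation, although earlier results of these data were known when they were chosen.

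The levels came from bisulfite sequencing of 15 libraries from 3 established human lines of colorectal carcinoma (DLD1, HCT116, HCT8), all grown in the same serum-supplemented medium. In each line 5-azacitidine was given at 0, 500 or 1000 nM, with 2 technical replicates at the lowest and the highest dose and 1 library between them. 5-Azacitidine is a cytidine analogue that traps DNA methyltransferases, and the time of treatment is not given in the sources used here. Every value is the percentage of methylated CpGs for 1 repeat name in 1 library, as a whole percent with unknown depth, so that no counting interval could be given. There is no value for single copies or cells, so a level between 0% and 100% does not say whether copies or cells differed. How the copies of a repeat were combined is not stated in the labels or headers. The table holds no marker by which the identity of a line could be checked.

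DNA transposons move by a cut-and-paste mechanism: a transposase encoded by a full-length copy recognises the terminal inverted repeats of an element, excises it and inserts it elsewhere. No family is known to be mobile in the human genome today, and the copies are molecular fossils, many of them short elements that never coded for a transposase. Tigger elements belong to the pogo branch of the Tc1/mariner superfamily, to which the human centromere protein CENPB and the TIGD genes are related. HSMAR1 and HSMAR2 are mariner elements; the transposase of an HSMAR1 copy survives as part of SETMAR, a fusion with a histone methyltransferase domain. MADE1 is a short palindromic element mobilised by the HSMAR1 transposase. Charlie elements are the main human branch of the hAT superfamily, named after hobo, Activator and Tam3. In differentiated mammalian cells CpGs in repeats are generally methylated.

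MADE1 copies are also the source of the miR-548 family of microRNA genes, whose hairpins show how few CpGs so short a sequence can carry. From RefSeq (GRCh38.p14), 5 such hairpin entries were read, and a chromosome was skipped, so they need not cover the whole family. These entries had 57 to 86 bases and 0 to 4 CpGs. Of these 5, those with the most and the fewest CpGs are printed with each CpG in capitals.
MIR548AW: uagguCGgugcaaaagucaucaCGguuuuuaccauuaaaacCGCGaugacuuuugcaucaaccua
MIR548M: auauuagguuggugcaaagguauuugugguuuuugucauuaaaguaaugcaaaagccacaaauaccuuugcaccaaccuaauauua
MIR548AW lies at chr9:132945707-132945771 on the plus strand, within the span of the protein-coding gene GFI1B. MIR548M lies at chrX:95063141-95063226 on the minus strand and overlaps no protein-coding or long non-coding gene of that annotation. The methylation table names hg19 in its processing notes and gives no value for single copies, so neither hairpin has a level of its own.

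Whether values followed the repeat names was checked in every library. Earlier results of these data had already marked replicate 1 of untreated DLD1 as the library to read, so the check describes that choice and is not independent of it. It was first made on repeats that are not DNA transposons, a check added after the data were seen. Over 351 names starting with Alu, L1, LTR or MLT, these 4 groups held 18.7% of the variance in replicate 1 of untreated DLD1 and 0.0635% to 3.75% in the other 14 libraries. The 35 Alu names, near copies of 1 short retrotransposon, had an SD of 3.04 points there and of 9.88 to 22.8 points in the others.

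The DNA transposons themselves also stood apart in this library. In replicate 1 of untreated DLD1 the 55 DNA transposons averaged 69.5%, which was 9.37 percentage points above the mean of all 834 repeats. In the other 14 libraries the rows with the same names lay between -4.56 and 4.14 points of the library mean. In replicate 1 of untreated DLD1, 43 of 55 members lay above the library median of 62%, where 48.9% of all repeats did. In the other libraries 20 to 32 of the 55 rows lay above their library's median.

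**Figure D1:**
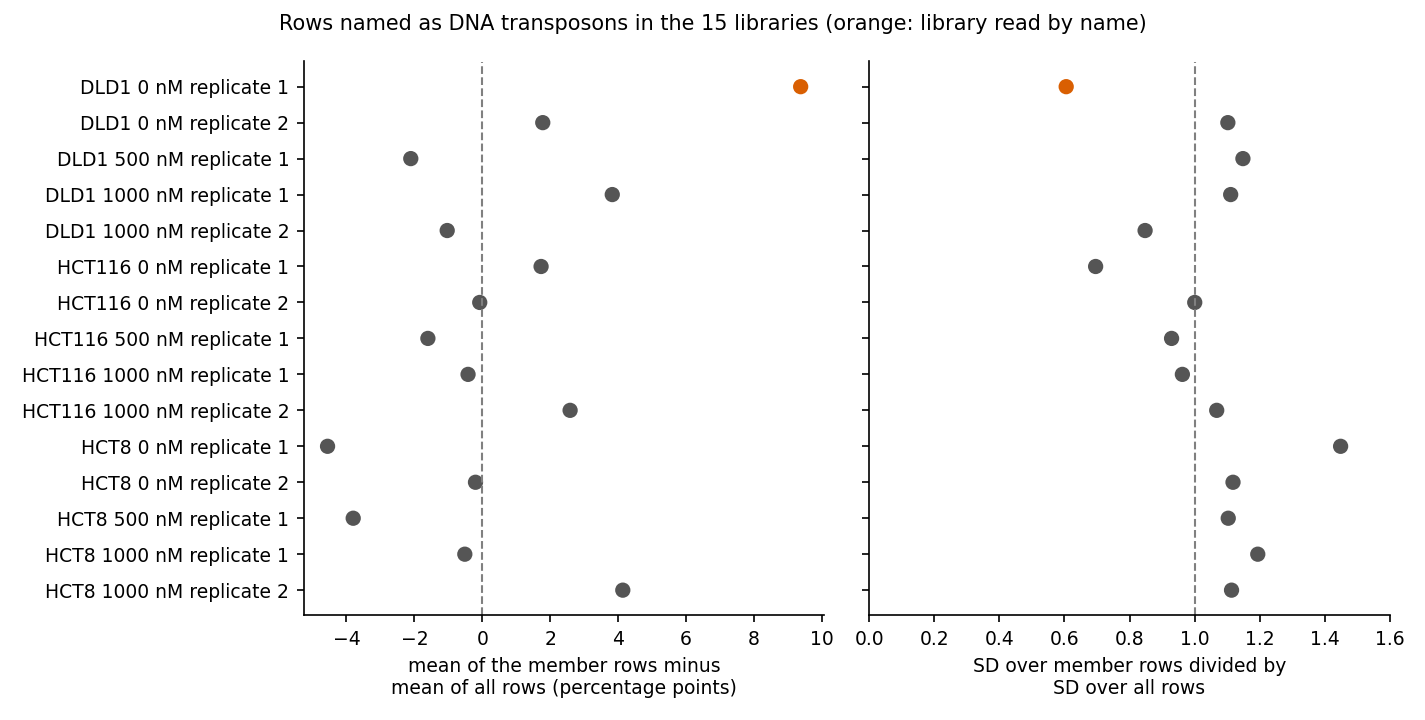
Each point is 1 of the 15 libraries: on the left the mean of the 55 member rows minus the mean of all rows, in percentage points, and on the right the SD over member rows divided by the SD over all rows. Replicate 1 of untreated DLD1 (orange) stands at 9.37 points and a ratio of 0.605, and the other libraries lie between -4.56 and 4.14 points with ratios of 0.696 to 1.45.

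The spread over members was also narrowest in this library. The SD over the members was 9.25 points in replicate 1 of untreated DLD1, or 0.605 of the SD over all its repeats. In the other libraries this ratio ran from 0.696 in replicate 1 of untreated HCT116 to 1.45 in replicate 1 of untreated HCT8. At 0% or 100%, replicate 1 of untreated DLD1 listed 0 of the 55 members and 1.68% of all repeats, so that the members' count was near the background. In the other libraries the count of member rows ran from 0, in replicate 1 of untreated HCT116, to 13 in the HCT8 library at 500 nM, with a median of 2.5.

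Single rows did not carry over between libraries. Across the 55 names, the Pearson correlation of replicate 1 of untreated DLD1 with each other library ran from -0.126 to 0.249, and it was 0.0528 with its own technical replicate. The names are points that share a library and are not independent, so these values are descriptions. Charlie3 was listed at 75% and 5% in the technical replicates of untreated DLD1, Charlie1 at 76% and 25%, and Tigger11a at 50% and 3%. Tigger10, at 85% and 87%, and Charlie4z, at 77% in both, lay close. The median gap between the replicates was 15 points, 20 of the 55 rows were within 10 points and 18 were more than 20 points apart.

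**Figure D2:**
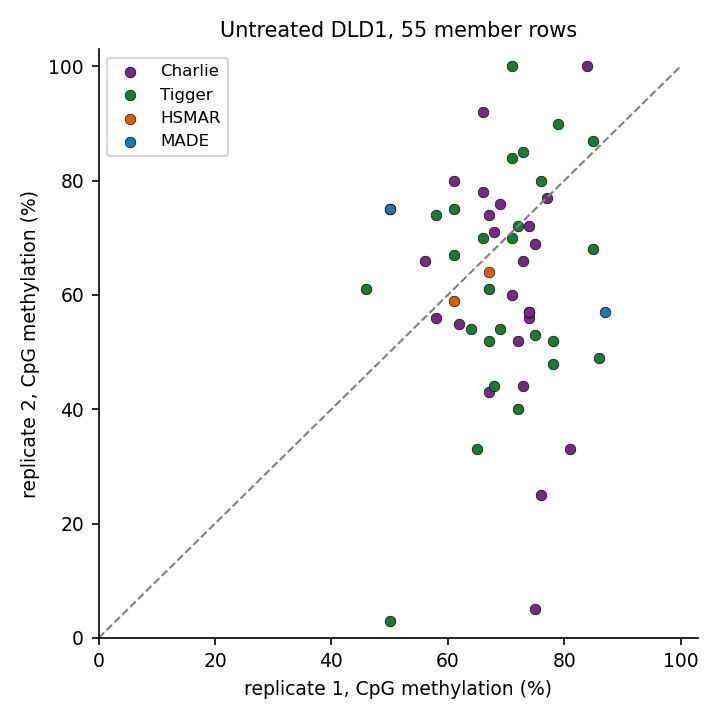
Each point is 1 of 55 DNA transposon names, with its CpG methylation in untreated DLD1 replicate 1 on the x axis and in technical replicate 2 on the y axis, both in percent, and the dashed line marks equal values. The points do not follow the line (Pearson correlation 0.0528), and Charlie3 lies 70 points below it.

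The same held over the other lines. In the 6 untreated libraries the row named Charlie4z was listed between 0% and 100%, HSMAR1 between 64% and 83%, MADE1 between 50% and 86%, and Tigger6a, the row with the narrowest span, between 70% and 81%. The median span of a row over these libraries was 36 points. Disagreement between libraries does not tell which of them follows the names. The levels of named elements are given for the first untreated DLD1 replicate only, which earlier results had already marked. In it the Alu, L1, LTR and MLT groups held the most variance, a check not independent of that choice. This replicate is 1 library without a replicate check and without a test. The effect of 5-azacitidine on a Tigger or Charlie element could not be read from this table. Over all named repeats, library means were 60.1% to 72.9% at 0 nM, 37.0% to 54.7% at 500 nM and 36.9% to 62.5% at 1000 nM. The 55 rows named as DNA transposons averaged 62.2% to 74.6%, 34.9% to 53.1% and 35.8% to 65.1% at these doses. These ranges pool the 3 lines. Over all named repeats, DLD1 means were 60.1% and 60.4% untreated and 36.9% to 38.3% treated. Those of HCT116 were 72.9% in both untreated libraries and 54.7% to 62.5% treated. For HCT8 they were 68.0% and 68.7% untreated and 44.6% to 48.7% treated.

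These checks have limits within the members themselves. Family membership (Tigger, Charlie, HSMAR or MADE) held 1.42% of the variance over members in replicate 1 of untreated DLD1. It held 0.203% to 18.4% in the other libraries, with the highest share in replicate 2 of DLD1 at 1000 nM. Subfamilies with the same number differed by 8.44 points on average over 25 pairs, against 10.4 points over all 1485 pairs of members, a ratio of 0.815. In the other libraries the ratio ran from 0.789 to 1.48. With all values kept, neither the share between families nor this ratio thus told this library from the others. Taken alone, the same-number difference was 10.7 to 40.9 points in the others, where all pairs differed by 10.1 to 33.0 points. Without values of 0% or 100% the lowest ratio of the other libraries was 0.900, above the 0.815 of this library, a difference that was not tested. The high level of the members as a set was among the values by which this library was singled out, so it is given as a description of 1 library. The technical replicate did not show it, with the member rows 1.78 points above the library mean.

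Tigger and mariner-like elements and Charlie elements were methylated to nearly the same level in replicate 1 of untreated DLD1. The 30 Tigger, HSMAR and MADE names averaged 69.3%, with an SD over names of 10.4 points, and the 25 Charlie names averaged 69.7% with an SD of 7.84 points. The difference, Tigger and mariner-like minus Charlie, was -0.42 points, small beside these SDs over names. Medians were 70% and 72%. The ranges overlapped almost entirely, from 46% to 87% and from 50% to 84%. In the other 14 libraries the same difference between rows ran from -11.6 to 5.42 points. No test was possible with 1 library, and names are not replicates, so an interval for this difference between the superfamilies cannot be given.

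**Figure D3:**
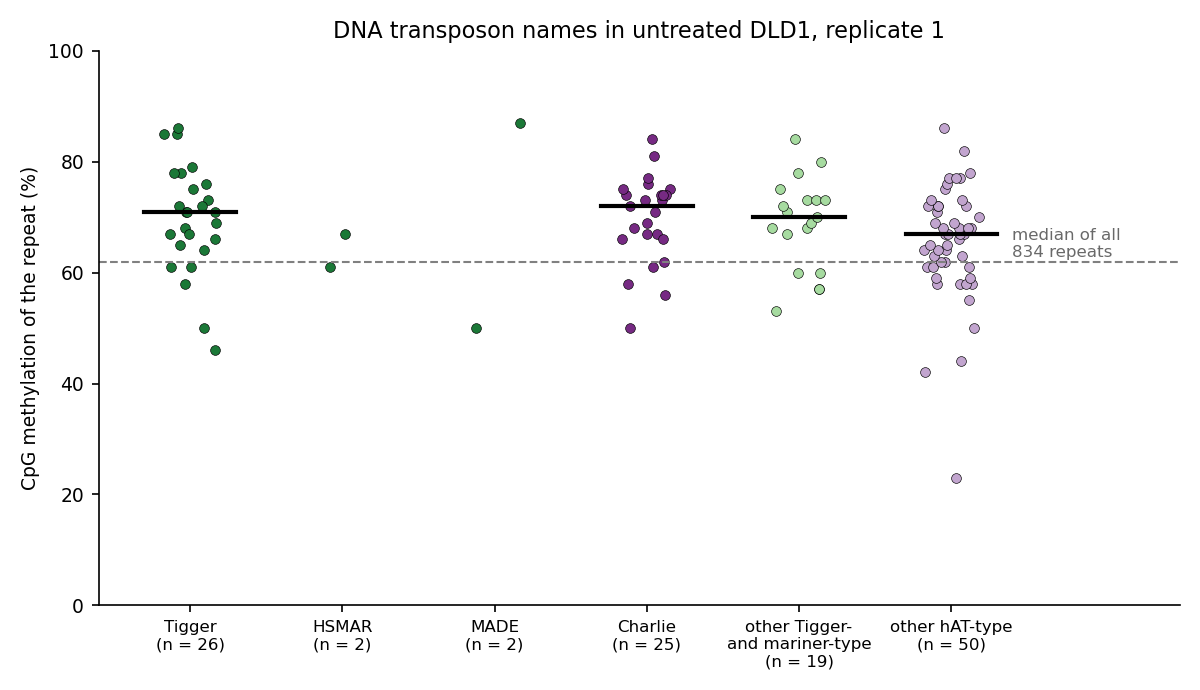
Each point is 1 repeat name in untreated DLD1 replicate 1, with its CpG methylation in percent on the y axis, grouped by family, and black bars mark medians of groups with more than 2 names. Tigger (median 71%) and Charlie (median 72%) overlap, and both medians lie above the dashed line at 62%, the median of all 834 repeats.

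Of the 55 members, 30 were between 65% and 75%, where 32% of all named repeats lay. At 70% or more there were 29 members, a level reached by 25.1% of all named repeats. Levels of 80% or more were found for 6 members, against 5.16% of all repeats. They were MADE2 at 87%, Tigger12A at 86%, Tigger10 and Tigger3d at 85%, Charlie9 at 84% and Charlie1b at 81%. Levels of 50% or less were found for 4 members, against 19.2% of all repeats: Charlie25, MADE1 and Tigger11a at 50% and Tigger1a_Art at 46%.

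Of the 26 Tigger names, 21 lay above the library median and 5 below it. The lowest were Tigger1a_Art at 46%, Tigger11a at 50% and Tigger9a at 58%, and the others below the median were Tigger1 and Tigger2, both at 61%. The highest were Tigger12A at 86% and Tigger10 and Tigger3d at 85%. Tigger2 was at 61%, Tigger2b_Pri at 65% and Tigger2a at 66%, so all of its 3 names were within 5 points. The 5 Tigger3 names stood higher, at 68% for Tigger3b, 71% for Tigger3, 73% for Tigger3a, 75% for Tigger3c and 85% for Tigger3d. In the Tigger4 family the name without a suffix was lowest, at 64%, with Tigger4b at 78% and Tigger4a at 79%.

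Tigger8 and Tigger12c were at 67%, Tigger13a at 69%, Tigger7 and Tigger15a at 71%, Tigger6a and Tigger16b at 72% and Tigger5 at 76%. Tigger9b was at 78%, 20 points above Tigger9a. Tigger12A was 19 points above Tigger12c, and these were the widest gaps within any of the 10 numbered families with more than 1 name. The tightest were Charlie7, with a span of 4 points, and Tigger2.

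The mariner-like names fell on both sides of the library median. HSMAR1 was at 67% and HSMAR2 at 61%. The short element MADE1 was at 50% and MADE2 at 87%, the latter the highest value of all members. MADE1 thus stood 17 points below HSMAR1, the element whose transposase is held to have moved it. Over all pairs of members the average difference was 10.4 points, and whether this gap is unusual was not tested. In the other untreated DLD1 replicate the MADE1 row was at 75%, the HSMAR1 row at 64% and the MADE2 row at 57%. Values there were not shown to follow the names, so these rows cannot check the order within this group.

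Of the 25 Charlie names, 20 lay above the library median, Charlie20a was at it, and 4 lay below it: Charlie25 at 50%, Charlie13a at 56%, Charlie19a at 58% and Charlie2b at 61%. The highest were Charlie9 at 84%, Charlie1b at 81% and Charlie4z at 77%. Charlie1 was at 76% and its relative Charlie1a at 74%, so the Charlie1 family had a mean of 77.0% over 3 names. Charlie7 was at 75% and Charlie7a at 71%. Charlie2a was at 73%, 12 points above Charlie2b, and Charlie4z was 11 points above Charlie4a, at 66%. Charlie3 was at 75%, Charlie8 at 74% and Charlie5 at 73%.

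Charlie names with low numbers were more methylated than those with high numbers in this library. The 13 names of the families numbered 1 to 9 averaged 73.8% with an SD of 5.83 points and a median of 74%, and 12 of them lay above the library median. The 12 names numbered 10 and up averaged 65.3% (SD 7.44 points, median 67%), with 8 above the median. The difference of the means was 8.60 points. The highest of the second set were Charlie18a and Charlie24 at 74%, followed by Charlie23a at 72%, Charlie17a at 69%, Charlie10 at 68%, Charlie15a and Charlie21a at 67% and Charlie22a at 66%. Both sets overlapped between 61% and 74%. The split was chosen after the values had been seen and was not tested.

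**Figure D4:**
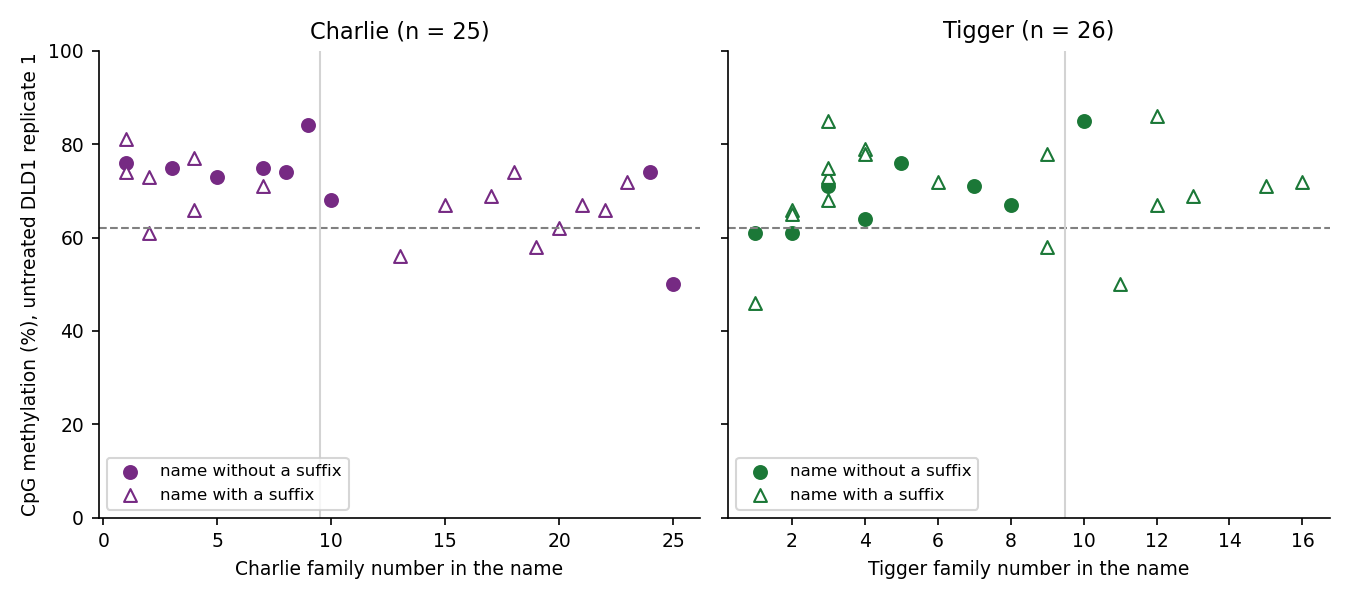
Each point is 1 Charlie (left) or Tigger (right) name in untreated DLD1 replicate 1, with the family number in its name on the x axis and CpG methylation in percent on the y axis; filled circles are names without a suffix and open triangles names with one. Charlie names numbered 1 to 9 average 73.8% and those from 10 up 65.3%, while the corresponding Tigger means are 69.2% and 71.4%; the dashed line is the library median of 62%.

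The corresponding split of the Tigger names gave the opposite sign: 69.2% over 19 names numbered 1 to 9 and 71.4% over 7 names numbered 10 and up, with a median of 71% in both sets. Rows named Charlie gave differences from -8.06 points, in the technical replicate of the same cells, to 3.45 points in the other 14 libraries. Family numbers are labels given as families were described, and neither the age nor the copy number of a family is in the table. Names without a suffix and names with one differed less in their means. Among Charlie names the means were 72.1% (9 names) and 68.4% (16 names), and among Tigger names 69.5% (8 names) and 69.9% (18 names). In medians, without minus with a suffix, the gaps were 6 points for Charlie and -2.5 for Tigger, against 7 and 0 points by number. Most Charlie names numbered 10 and up carried a suffix, so these splits are not separate.

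Other DNA transposons were listed by lineage from general knowledge of these repeats, since neither the table nor most of the names give a lineage. Most carry MER names, given before the parent element of these short, non-coding copies was known. Of 114 listed names 70 were measured, and 49 of these (70%) lay above the library median, against 48.9% of all named repeats. Their mean was 66.4%, or 6.24 points above the library mean. In the other 14 libraries rows with these names lay between -3.22 and 2.51 points of the library mean.

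The relatives of Tigger and mariner were at the level of the Tigger names themselves. The 19 measured names averaged 68.8% with a median of 70%, and 14 lay above the library median. MER2B, at 84%, and MER44A, at 80%, were highest, and both are short Tigger derivatives. Kanga1a, at 53%, and Kanga1 and MER47C, at 57%, were lowest.

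The hAT relatives had a slightly lower mean, 65.3% over 50 names, with a median of 67% and 34 names above the library median. ORSL-2a, at 86%, and Arthur1A, at 82%, were highest. MER107, at 23%, and MER30B, at 42%, were lowest, and MER30B lay 33 points below MER30, at 75%. MER5A, MER20 and MER3, abundant non-autonomous relatives of Charlie, were at 67%, 67% and 77%. The only PiggyBac name on the list that was measured, MER75, was at 71%. The mean of the Tigger and mariner relatives was 3.52 points above that of the hAT relatives, a difference that rests on these assigned lineages and was not tested.

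Set beside other repeats of the same library, the 55 DNA transposons had a median of 71%, against 62% for the 150 names starting with LTR, 61% for the 58 MLT names and 57% for the 108 L1 names. The 35 Alu names stood higher than the DNA transposons. Their mean lay 16.6 points above the L1 mean of 57.4%, and the DNA transposons averaged 69.5%. MLT names are mostly long terminal repeats of old mammalian retrotransposons, and L1 is the LINE retrotransposon family. At 80% or more were 1 of the 58 MLT names, 0 of the 108 L1 names and 7 of the 150 LTR names. Of the 55 DNA transposons 6 reached this level, against 5.16% of all named repeats. Alu names were not counted at this level. These are descriptions of 1 library, and whether the groups differ was not tested.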

How the data were processed

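Bisulfite libraries were made from DNA of 3 cell lines and sequenced with paired reads of 75 bp, per the labels' protocols. The authors deposited CpG methylation in percent for RepeatMasker repeats, per the file headers, as whole numbers with a column per library. The submitters' processing notes name BSMAP 2.74, Picard 1.8.4 and hg19 without their roles. The labels and headers used here do not state how reads of repeat copies were placed and combined, the depth or any coverage filter. Of 835 rows, 1 (0.12%) had no repeat name and was left out.

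Members were taken by the start of their names. In each family the 3 highest and 3 lowest were to be named, and of other DNA transposons the 2 highest and 2 lowest of each lineage. MER30, MER5A, MER20, MER3 and the remaining members are further examples, named after their values were seen. Members and lists were chosen with earlier results of these data known. Values were compared by means, medians, counts and SD over names in Python 3.11.15 with numpy 2.4.6 and pandas 2.3.3. Of the check statistics, only the share of variance between groups and the same-number pair difference were tried on simulated data. No p-value was computed, because 1 library was read by name. The check on Alu, L1, LTR and MLT names was added after the data were seen. Alternatives covered the summary, the names counted, filters and the library read. RepeatMasker consensus sequences were not used here.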

Additional observations from a re-analysis of the deposited data

How the results depend on the processing

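A value was taken to have moved when it changed by over 1 percentage point (0.1 for ratios and correlations). Of 44 alternative values, 18 did, but several of the others could not move. In replicate 1 of untreated DLD1 no member was at 0% or 100% or under 20%, the lowest being 46%, so these filters changed nothing there. Leaving out replicate 2 repeated the main values. The count is therefore no measure of stability. With medians, the level of all members was 71%, of Charlie 72% and the difference -2 points. With the other DNA transposon names added, all averaged 67.7%, Charlie and hAT 66.8% and the difference was 2.34 points. With the mean of both untreated DLD1 replicates, all averaged 65.8%, Tigger and mariner-like 66% and Charlie 65.6%. Leaving out replicate 1 or 2 of untreated DLD1 in turn gave 62.2% to 69.5% for all members, 62.7% to 69.3% for Tigger and mariner-like, 61.6% to 69.7% for Charlie, and a difference of -0.42 to 1.14 points; the values without replicate 1 read replicate 2, where values were not shown to follow the names. The sign of the difference was thus not stable, and it ran from -2 to 2.34 points over the alternatives run.

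The variance between families, 1.42%, was 0.052% with 2 lineages and 2.65% on ranks, and its highest value in the other libraries was 13.1% and 16.3%. The lowest pair ratio of the other libraries was 0.900 without values of 0% or 100%. That of replicate 1 of untreated DLD1 stayed at 0.815 and was then the lowest of all libraries. Coverage minimums could not be applied, since no coverage is given, and unknown depth limits every value. No paired analysis was possible because the results come from 1 library and no test.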
